A study of Arabidopsis thaliana with 9 samples.

Results

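PYK10 (AT3G09260), NAI2 (AT3G15950) and BGLU28 (AT2G44460) were followed on 9 Affymetrix arrays of Arabidopsis thaliana seedlings treated with the compound FPX. Each gene was taken by name, as the probe set that the platform annotation gives to that gene alone, and 1 probe set was found for each, 3 of the 11228 probe sets tested and of the 5981 with a single gene. PYK10 and BGLU28 encode beta-glucosidases, and PYK10 and NAI2 encode a major content and an organising protein of the endoplasmic reticulum (ER) body. Wild-type seedlings 4 d old on MS medium were collected before transfer (0 d) or after 2 or 8 d on MS medium with 45 µM FPX, as whole seedlings, with 3 arrays in each of the 3 groups. The treated plants had also aged by 2 or 8 d, with no age-matched untreated plants analysed here. FPX and age therefore cannot be told apart in contrasts with 0 d. Nor can time on FPX and age be told apart between 2 d and 8 d. The 0 d arrays were processed anew from raw data that also serve another series, and the sources used here do not say whether all arrays were run together. Since nothing in the labels ties the replicate numbers to separate cultures, the p-values cover only the spread among these samples, which may be technical.

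ER bodies are spindle-shaped compartments of the ER found in Arabidopsis and its relatives, abundant in roots and in the epidermis of young seedlings. They store beta-glucosidases apart from their glucoside substrates, and cell damage brings enzyme and substrate together. In roots the main enzyme is PYK10, whose substrates include indole glucosinolates, sulfur-containing defence compounds, and the coumarin glucoside scopolin. BGLU28 is known as one of the genes induced most strongly when seedlings are short of sulfate, and its enzyme has been linked to the recovery of sulfur from glucosinolates.

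The table held probe sets that were nearly all different between groups. When all 3 groups were tested together, probe set by probe set, 11202 of 11228 (99.8%) had p below 0.04. A listed gene had to differ somewhere, so counts below do not stand for the genome or for whole gene families. The limma tests below compared the same 3 groups within this table. Their adjusted p-values and calls therefore take no account of how the probe sets were chosen. Across probe sets, pairs of arrays from the same group had r between 0.987 and 0.991. Values are MAS5 signal, a linear brightness per probe set with no unit, and changes were fitted as log2(signal + 16) with limma, so that fold changes of dim probe sets are understated. Of all probe sets 72.7% changed at 2 d against 0 d (44.6% higher, 28.1% lower), 91.0% at 8 d against 0 d (54.9% higher, 36.1% lower) and 76.0% at 8 d against 2 d (43.9% higher, 32.1% lower). Over all probe sets the changes had a median of 0.17, 0.36 and 0.15 (log2) in these contrasts. The share of all probe sets whose groups did not overlap was not counted. Statements below that groups did or did not overlap are therefore descriptions only. In RNA of whole seedlings, fewer cells of a type and less RNA per cell cannot be told apart.

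PYK10, the principal beta-glucosidase of root ER bodies, was modestly lower after FPX at both times on the authors' scale, 1.24-fold at 2 d and 1.31-fold at 8 d, and these falls did not pass under all scalings. Its signal was 13864, 13898 and 13279 at 0 d, 10821, 10939 and 11325 at 2 d, and 10459, 10941 and 9911 at 8 d. All 3 arrays at 0 d lay above the 6 arrays on FPX, and the groups at 2 d and 8 d overlapped. The log2 change was −0.31 ± 0.08 (SE, 95% interval −0.48 to −0.14, limma adjusted p = 0.00383) at 2 d and −0.39 ± 0.08 (−0.56 to −0.22, adjusted p = 0.000506 in limma) at 8 d against 0 d. From 2 d to 8 d it was −0.08, with an interval of −0.25 to 0.09 (limma adjusted p = 0.355). Many probe sets fell further: 24.5% of all had a larger fall at 2 d and 31.8% at 8 d. After quantile normalization the change was −0.04 at 2 d and 0.15 at 8 d, and with arrays scaled on the hybridization controls it was −0.20 (adjusted p = 0.0718) and −0.14 (adjusted p = 0.187, both in limma). With array medians set equal both falls passed (−0.49 and −0.65).

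NAI2, a protein needed for ER body formation, fell at 2 d and was back near its starting level at 8 d. The signal was 3768, 3714 and 4136 at 0 d, 2593, 2377 and 2956 at 2 d, and 4069, 3769 and 3629 at 8 d. The 3 arrays at 2 d lay below all others, and the groups at 0 d and 8 d overlapped. NAI2 changed by −0.55 ± 0.10 (SE, 95% interval −0.77 to −0.34, limma adjusted p = 0.000433) at 2 d and rose by 0.53 ± 0.10 (0.32 to 0.75, adjusted p = 0.000484 in limma) from 2 d to 8 d. At 8 d against 0 d the change was −0.02, with an interval of −0.23 to 0.20 (limma adjusted p = 0.856). The fall at 2 d and the rise from 2 d to 8 d passed under all 17 alternatives, whereas the contrast of 8 d with 0 d passed as a fall with array medians set equal (−0.28) and as a rise after quantile normalization (0.26).

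BGLU28 had by far the largest change of the 3 genes. The signal was 809, 1113 and 819 at 0 d, 93.2, 123 and 107 at 2 d, and 298, 77.4 and 292 at 8 d. Every array on FPX lay below every array at 0 d, and at 8 d replicate 2 stood well below replicates 1 and 3 and below all 3 arrays at 2 d. The log2 change was −2.90 ± 0.37 (SE, 95% interval −3.71 to −2.09, 7.47-fold, limma adjusted p = 3.64e-05) at 2 d and −2.14 ± 0.37 (−2.95 to −1.33, 4.42-fold, adjusted p = 0.000177 in limma) at 8 d. Of the 11228 probe sets 29 had a larger fall at 2 d and 351 at 8 d. Both falls passed under all 17 alternatives. Ranked by brightness among the 11228 probe sets, BGLU28 lay between places 2645 and 3548 at 0 d and between 10390 and 10792 at 2 d. The table gives no detection calls, so the height of these dim signals over background is unknown.

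Whether the rise of BGLU28 from 2 d to 8 d passed the test rested on 1 array. With all arrays the log2 change from 2 d to 8 d was 0.76 ± 0.37 (SE, 95% interval −0.05 to 1.57, limma adjusted p = 0.0794). Without 8 d replicate 2 it was 1.34 (adjusted p = 3.11e-05 in limma), and the change at 8 d against 0 d was then −1.56. On that array 7 of the 11228 probe sets lay at least 2-fold below both other arrays at 8 d, and 0 lay as far above. On the other 8 arrays 0 to 3 lay as far below within their groups. Counted in both directions, 2 d replicate 3 also had 7, of which 6 lay above and 1 below. Only the downward count was highest on 8 d replicate 2, and the cause was not tested. Scaling on the hybridization controls also carried the contrast past the threshold (0.89, limma adjusted p = 0.0339).

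**Figure D1:**
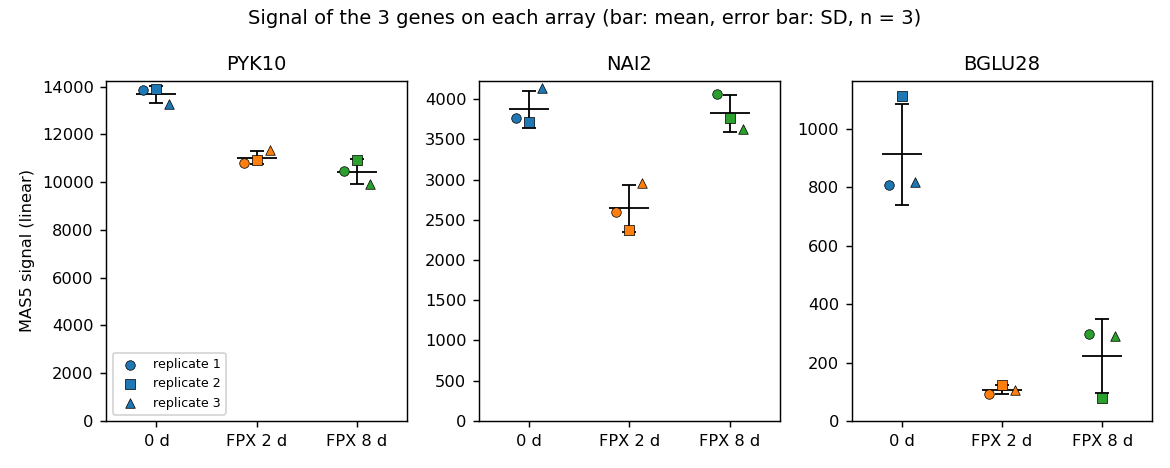
MAS5 signal (linear axis from 0, 1 panel per gene) of PYK10, NAI2 and BGLU28 on each of the 9 arrays, with the group mean as a bar and the SD as error bar (n = 3). PYK10 is lower in both FPX groups than at 0 d, NAI2 is low only at 2 d among the 3 groups, and BGLU28 is low in both FPX groups with 1 array at 8 d, at 77.4, below the other two.

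Other ER body genes were read beside PYK10 and NAI2. Of a list of 20 genes of ER bodies and of the complex that PYK10 forms with lectins after cell damage, 6 were found by locus code with a probe set of their own. For this and the other lists, the 222 probe sets annotated to several genes and the 5025 with no gene listed were left out. A listed gene that was not found may therefore still have a probe set in the table. At 2 d, 6 of 6 fell, beside 28.1% of all probe sets, with a median log2 change of −0.38 against 0.17 for all. At 8 d against 0 d, 2 fell, 1 rose and 3 did not pass, beside 36.1% lower and 54.9% higher in the table, with a median of 0.03 against 0.36. This count turned with the scaling: 0 fell and 3 rose after quantile normalization and on the hybridization controls alike, and 0 rose with array medians set equal. From 2 d to 8 d, 4 rose, 0 fell and 2 did not pass, beside 43.9% higher and 32.1% lower in the table, with a median of 0.51 against 0.15. PYK10 and NAI2 are 2 of the 6, and the list was drawn up with their changes known.

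NAI1, a transcription factor of the basic helix-loop-helix family needed for PYK10 and NAI2 expression, showed the deepest dip of the 6. Its signal was 336, 423 and 411 at 0 d, 209.7, 215 and 198 at 2 d, and 479, 405 and 448 at 8 d. All arrays at 2 d lay below the rest, and 0 d and 8 d overlapped. NAI1 changed by −0.85 ± 0.10 (SE, limma adjusted p = 2.49e-05) at 2 d, rose by 1.04 ± 0.10 (adjusted p = 4.43e-06 in limma) from 2 d to 8 d, and stood at 0.18 (95% interval −0.04 to 0.41, limma adjusted p = 0.107) at 8 d against 0 d. Scaled on the hybridization controls, the last of these was a rise of 0.43.

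The other 3 genes encode jacalin-related lectins, sugar-binding proteins of the PYK10 complex. JAL33 had signals of 5650 to 6638 at 0 d, 4973 to 5494 at 2 d, then 7869 to 8471 at 8 d, and no groups overlapped. It was the only one of the 6 whose rise at 8 d against 0 d passed on the authors' scale, by 0.40 ± 0.09 (SE, limma adjusted p = 0.00114). This rise of JAL33 was near the median change of all probe sets (0.36) and did not pass with array medians set equal (0.13). Its fall at 2 d was −0.24 (limma adjusted p = 0.0278) and did not pass without 0 d replicate 1 (−0.22) or 3 (−0.19), or without 2 d replicate 1 (−0.20) or 3 (−0.24). JAL34, which lies next to JAL33 in the RefSeq assembly TAIR10.1 with 0 protein-coding genes between them, had signals of 7932 to 9300 at 0 d, 5759 to 7298 at 2 d, then 8560 to 9856 at 8 d. It changed by −0.40 at 2 d and rose by 0.48 from 2 d to 8 d. JAL22 had signals of 3163 to 3751 at 0 d, 2686 to 2788 at 2 d, then 2703 to 3140 at 8 d. Its changes of −0.36 at 2 d and −0.30 at 8 d both passed, but the second was −0.08 after quantile normalization and −0.05 on the hybridization controls.

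How many of the ER body falls passed at 2 d depended on how arrays were scaled. After quantile normalization and on the hybridization controls 3 of the 6 passed in each case, with PYK10 and JAL33 lost in both, JAL34 in the first and JAL22 in the second, while NAI1 and NAI2 passed in both. The hybridization controls in the table are 7 probe sets for control RNA added at hybridization. They themselves changed by a mean of −0.11 (log2) at 2 d against 0 d, and by −0.25 at 8 d. Whether these controls were chosen by the same rule as the other probe sets is not stated. Scaling on them may therefore not be an independent reference. Quantile normalization replaces a value by that of its rank, and PYK10 lay between the 45th and 51st brightest probe set at 0 d, the 47th and 58th at 2 d and the 19th and 41st at 8 d. Within an array, a scale factor common to all probe sets nearly cancels from the difference of log2(signal + 16) between NAI2 and PYK10. Quantile normalization does not cancel from it. On the authors' scale, NAI2 minus PYK10 lay between −1.90 and −1.68 at 0 d. The difference lay between −2.19 and −1.93 at 2 d, and between −1.53 and −1.36 at 8 d. The ranges of the 3 groups did not overlap, but those of 0 d and 2 d nearly touched, and the difference between the changes of the 2 probe sets was not tested.

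**Figure D2:**
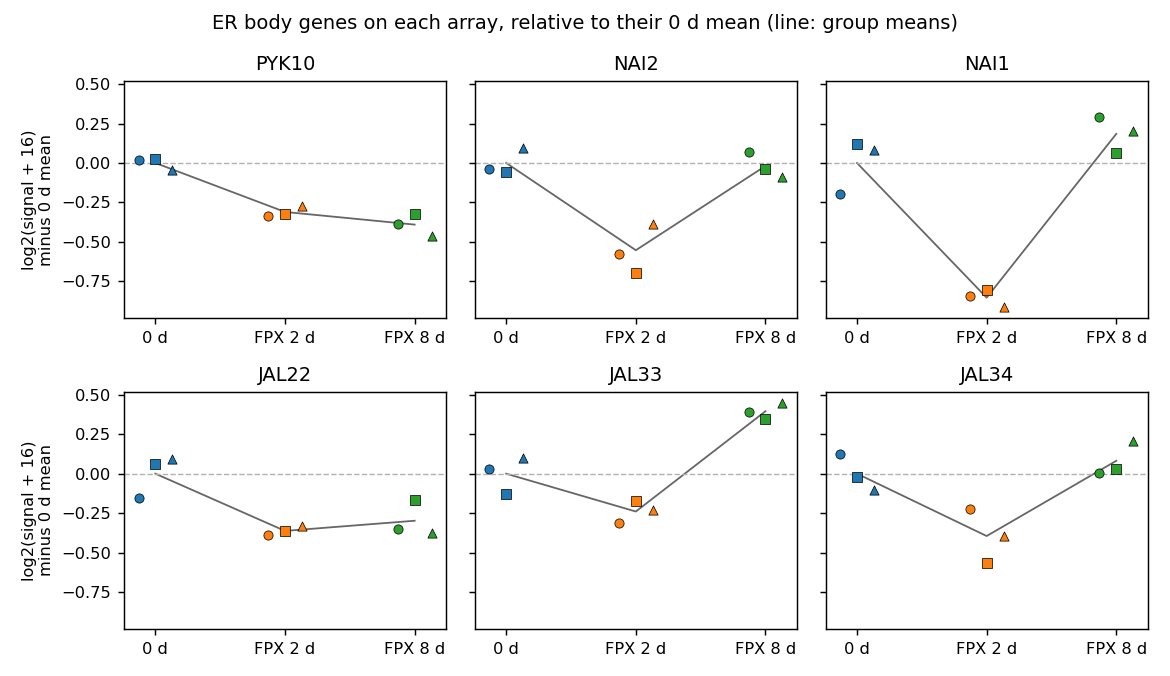
log2(signal + 16) of the 6 measured ER body genes on each array, less the gene's mean at 0 d, with circles, squares and triangles for replicates 1, 2 and 3 and a line through the group means. All 6 lie below 0 at 2 d on the authors' scale, 3 of them passing under quantile normalization. On the authors' scale NAI2, NAI1 and JAL34 lie near 0 at 8 d and JAL33 ends at 0.40. PYK10 and JAL22 stay below 0, which does not hold for PYK10 after quantile normalization.

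**Figure D3:**
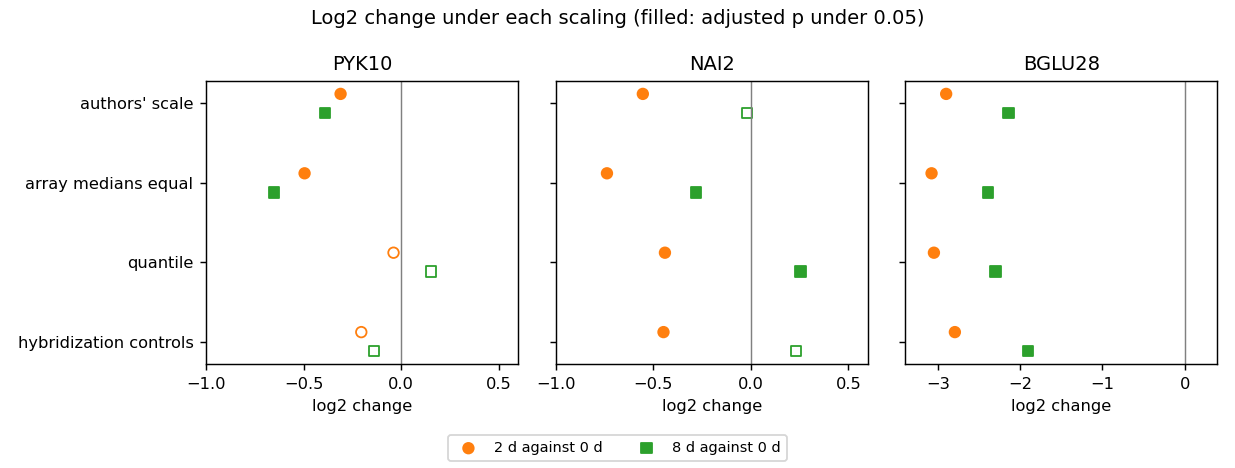
Log2 change at 2 d (circles) and 8 d (squares) against 0 d for PYK10, NAI2 and BGLU28 on the authors' scale and under 3 other scalings, filled where the limma adjusted p was under 0.05. BGLU28 stays filled and below −1.9 throughout, NAI2 stays filled at 2 d and crosses 0 at 8 d, and PYK10 at 8 d ranges from −0.65 to 0.15.

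PYK10 and BGLU28 belong to a family of glycosyl hydrolases of which 47 were listed and 10 were found with a probe set of their own. A probe set shared by BGLU21 and BGLU22 was left out. At 2 d, 6 of the 10 fell, 3 rose and 1 did not pass, beside 28.1% lower and 44.6% higher in the table, and the median log2 change was −0.37 against 0.17. At 8 d, 8 fell and 2 rose, beside 36.1% and 54.9%, with a median of −0.38 against 0.36. The 8 falls came down to 3 with arrays scaled on the hybridization controls. From 2 d to 8 d, 3 rose, 4 fell and 3 did not pass, beside 43.9% higher and 32.1% lower, with a median of −0.03 against 0.15.

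BGLU45 and BGLU46, neighbours in the RefSeq assembly with 0 protein-coding genes between them, encode enzymes known to act on the glucosides of lignin precursors. Both fell at 2 d and then moved in opposite directions. BGLU45 had signals of 154 to 166 at 0 d, 46.8 to 55.3 at 2 d, then 102 to 148 at 8 d, a change of −1.42 followed by a rise of 1.07 ± 0.11 (SE, limma adjusted p = 7.85e-06) from 2 d to 8 d. Its remaining fall at 8 d against 0 d, −0.35, did not pass without 8 d replicate 3 (−0.22) or on the hybridization controls (−0.12). BGLU46 had signals of 330 to 385 at 0 d, 133 to 166 at 2 d, then 64.6 to 112 at 8 d, with log2 changes against 0 d of −1.12 ± 0.16 and −1.97 ± 0.16 (SE, limma adjusted p = 9.49e-05 and 3.89e-07). Its further fall from 2 d to 8 d was −0.84.

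BGLU15, known to act on flavonol glycosides, is the direct neighbour of BGLU28 in the same assembly and did not share its fall at 2 d. Its signal was 781, 769 and 736 at 0 d, 1011, 994 and 997 at 2 d, and 651, 579 and 620.0 at 8 d. The 3 groups did not overlap. BGLU15 rose by 0.39 ± 0.08 (SE, limma adjusted p = 0.00106) at 2 d and was lower by −0.30 ± 0.08 at 8 d (adjusted p = 0.00337 in limma), which did not pass on the hybridization controls (−0.05).

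BGLU42, an enzyme that acts on coumarin glucosides in roots and takes part in iron deficiency and immune responses, was the one measured family member that rose at both times under every alternative. Its signal was 320.0 to 330 at 0 d, 449 to 526 at 2 d, then 612 to 694 at 8 d, with log2 changes of 0.58 and 0.95 ± 0.09 (SE, limma adjusted p = 1.01e-06 at 8 d). BGLU33 rose at 2 d by 1.89 ± 0.13 (SE, limma adjusted p = 3.96e-07), from a mean signal of 93.8 ± 19.6 (SD, n = 3) at 0 d to arrays of 381 to 394 at 2 d, and at 8 d the arrays were at 114 to 150, overlapping 0 d. Its remaining rise of 0.47 did not pass with array medians set equal or after quantile normalization.

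BGLU25, BGLU40 and BGLU16 made up the rest of the measured family. BGLU25 had signals of 1548 to 1640 at 0 d and 585 to 688 at 2 d, a change of −1.30 ± 0.08 (SE, limma adjusted p = 2.24e-07), and was at 1202 to 1261 at 8 d, where the change of −0.38 did not pass on the hybridization controls (−0.13). BGLU40 stood at −0.07 at 2 d (limma adjusted p = 0.731) and was lower by −1.72 ± 0.18 at 8 d, with arrays at 474 to 520 at 0 d and 116 to 205 at 8 d (adjusted p = 2.85e-06 in limma). BGLU16 was lower by −0.42 at 2 d and −0.41 at 8 d, the latter not passing on the hybridization controls (−0.16).

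**Figure D4:**
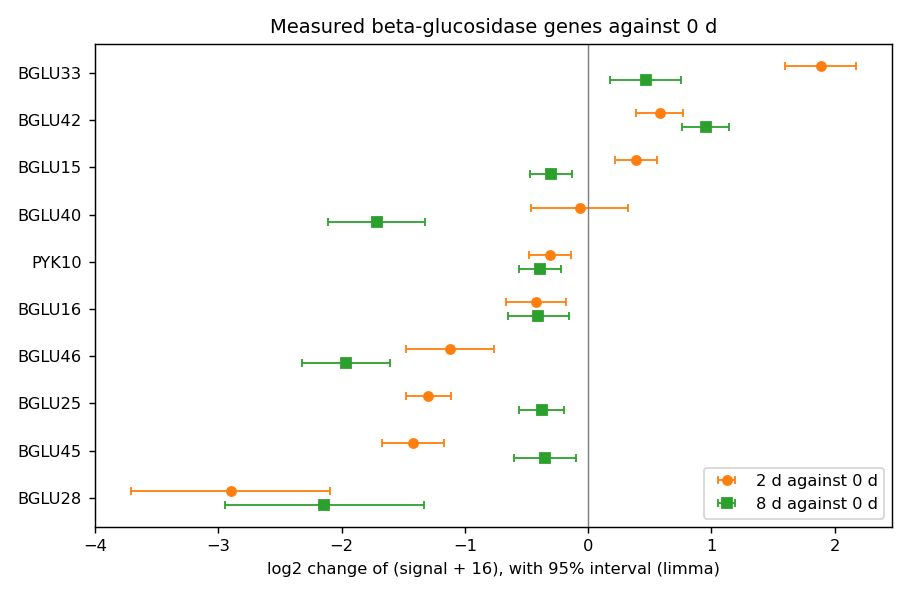
Log2 change against 0 d, with its 95% interval, of the 10 measured beta-glucosidase genes at 2 d (circles) and 8 d (squares), ordered by the change at 2 d. BGLU28 has the largest fall at 2 d and, with all arrays, at 8 d, where without 8 d replicate 2 it is −1.56, beside −1.96 for BGLU40 and −1.87 for BGLU46; BGLU33 has the largest rise at 2 d, and BGLU42 lies above 0 at both times.

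Genes of sulfur limitation and sulfate assimilation were read beside BGLU28. Of 37 listed, 4 were found, BGLU28 among them, and 4 of 4 fell at 2 d (28.1% of all probe sets did), with a median log2 change of −0.79. At 8 d 3 were lower, beside 36.1% of all probe sets, and 1 did not pass, while on the hybridization controls 1 was lower and 1 higher. APS3 and APS4 encode ATP sulfurylases, which activate sulfate in the first step of its assimilation. APS3 had signals of 874 to 1075 at 0 d, 488 to 624 at 2 d, then 693 to 883 at 8 d, a change of −0.83 ± 0.12 (SE, limma adjusted p = 0.000114) at 2 d. At 8 d APS3 was at −0.31 (limma adjusted p = 0.0293), its groups overlapped, and the call was lost without 0 d replicate 2 or 3, without 8 d replicate 1 or 3, and on the hybridization controls. APS4 changed by −0.54 and −0.38 at 2 and 8 d, the latter not passing on the hybridization controls (−0.13). AT1G04770 had signals of 880.2 to 970.4 at 0 d, 514 to 582 at 2 d, then 956 to 1019.7 at 8 d. It changed by −0.74 at 2 d and stood at 0.08 at 8 d against 0 d (95% interval −0.11 to 0.26), which passed as a rise on the hybridization controls (0.32).

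Genes that make or carry the substrates of these enzymes were read next. Of 43 listed genes of glucosinolate synthesis and transport 4 were found, of which 1 fell at 2 d and 3 did not pass, and 3 fell and 1 rose at 8 d, beside 36.1% and 54.9% of all. GTR1, a glucosinolate transporter, was lower by −0.37 at 2 d and −0.83 ± 0.10 at 8 d (SE, limma adjusted p = 8.72e-06). GSTU20 and AT2G31790 were lower at 8 d (−0.66 and −0.45), the second not on the hybridization controls (−0.20). BCAT4, which starts the chain elongation of methionine for glucosinolates, rose by 0.77 at 8 d. At 2 d its signals were 1959, 877 and 1088, with replicate 1 above all arrays at 0 d and the other two below them, and the change of −0.22 became −0.55 and passed without replicate 1 (limma adjusted p = 0.00178). The 1 gene of 7 found for coumarin synthesis and export, AT3G13610, was lower by −0.88 ± 0.10 at 8 d (SE, limma adjusted p = 8.12e-06). Of 13 listed partners of glucosinolate breakdown 0 were found by locus code.

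Of 18 listed ER chaperones and folding factors 4 were found. At 2 d 2 rose, 1 fell and 1 did not pass, beside 44.6% higher and 28.1% lower in the table. The counts at 8 d were the same, beside 54.9% higher and 36.1% lower. BZIP60, a transcription factor of the unfolded protein response, changed by −1.37 ± 0.10 at 2 d and −1.31 at 8 d (SE, limma adjusted p = 4.61e-07 and 1.69e-07), with arrays at 1830.2 to 2191 at 0 d against 713 to 831 at 2 d. The calreticulin gene CRT1b rose by 0.25 at 2 d, and AT5G07340 by 0.29 at 2 d and 0.31 at 8 d. The chaperone gene ATERDJ3B rose by 0.31 at 8 d. At 8 d the rises of AT5G07340 and ATERDJ3B were smaller than the median change of all probe sets (0.36). The rises of CRT1b, AT5G07340 and ATERDJ3B did not pass with array medians set equal, and that of CRT1b did not pass without 0 d replicate 2 (0.20). Of 16 listed jasmonate genes 2 were found, MYC3 and MYC4, transcription factors of jasmonate response. At 2 d 1 rose, beside 44.6% of all probe sets, and at 8 d 2 rose, beside 54.9%. MYC4 rose by 0.56 at 2 d, a call lost after quantile normalization (0.30), and by 1.53 ± 0.15 at 8 d, and MYC3 rose by 0.72 ± 0.10 at 8 d (SE, limma adjusted p = 1.84e-06 and 3.85e-05).

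Markers of root and shoot were read because PYK10 and NAI2 are known from roots and the RNA came from whole seedlings. Of 25 listed root markers 0 were found by locus code among probe sets of 1 gene, so the share of root RNA had no measure here. Of 16 shoot and leaf markers 3 were found, and at 8 d 3 of 3 fell, beside 36.1% of all probe sets, with log2 changes of −3.39 for STOMAGEN, −2.14 for SBPASE and −0.62 for FMA, the last not passing on the hybridization controls (−0.41). Their summed signal was 8371 to 9953 at 0 d, 6614 to 6984 at 2 d, then 2012 to 2119 at 8 d, and is nearly all SBPASE, whose mean signal was 8679.7 at 0 d and 1949.6 at 8 d. At 2 d STOMAGEN (−1.45) and SBPASE (−0.42) fell and FMA was at 0.05, which did not pass. The part of these shifts in the changes of PYK10, NAI2 and BGLU28 was not tested.

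Genes with a profile like each of the 3 were ranked by Pearson's r of log2(signal + 16) over the 9 arrays, among 511 probe sets of 1 gene with a symbol whose highest group mean lay above the median of that value over all probe sets. These correlations are descriptions, since the 9 arrays fall into 3 groups and all pairs share the group differences. Nearest to PYK10 were VPS2.1 (r = 0.982), ATMDAR2 (0.977), TET8 (0.975) and PRA7 (0.974). All 4 fell at both times on the authors' scale, beside 28.1% of all probe sets at 2 d and 36.1% at 8 d. Their choice by profile favours this, so it is no separate result. The changes were −1.57 and −2.08 for TET8, a tetraspanin, and −0.25 and −0.37 for VPS2.1, of the ESCRT machinery, which passed at neither time on the hybridization controls. Nearest to NAI2 were the cytochrome P450 gene CYP71B6 (r = 0.934), the beta-glucosidase gene BGLU25 (0.928), the sterol synthesis gene CPI1 (0.927) and PHOS34 (0.915). Each fell at 2 d and rose from 2 d to 8 d on the authors' scale, which choice by profile again favours. Of all probe sets 28.1% fell at 2 d and 43.9% rose from 2 d to 8 d. With array medians set equal the rise did not pass for CYP71B6 (0.20) and PHOS34 (0.18), and on the hybridization controls the fall of PHOS34 did not pass (−0.19). Nearest to BGLU28 were SAT32 (r = 0.971), LigB (0.967), the transcription factor gene BZIP53 (0.955) and NDB2 (0.953), an alternative NADH dehydrogenase of mitochondria. Their log2 changes at 2 d ran from −0.54 for BZIP53 to −1.13 for NDB2, beside −2.90 for BGLU28.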

How the data were processed

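The authors deposited array intensity as MAS5 signal, per the submitters' processing notes, on a linear scale. No MAS5 version, array scaling or rule for choosing probe sets is given in the sources used here. The upper quartile of signal was 1046 to 1103 on each array. The number of arrays limits the precision. Names came from the platform annotation, updated by gene ID from RefSeq (5962 of 5981). Group means of log2(signal + 16) were fitted for 11228 probe sets, leaving out 21 controls, with limma 3.58.1 in R 4.3.3 (6 residual and 5.24 prior degrees of freedom, two-sided, Benjamini-Hochberg over all probe sets, threshold 0.05), and tested on simulated data. Tables were read with Python 3.11.15 and pandas 2.3.3. The members and lists were chosen with earlier results of these data known. Text names the 3 genes, all measured family and ER body genes, up to 4 genes per other list with the largest change among those passing at 8 d, and 4 genes of like profile for each; AT1G04770 and CRT1b were added after their values were seen. Alternatives were pseudocount 1, 3 scalings, leaving out the 2807 dimmest probe sets, eBayes with trend, 2 groups only, a replicate block and each array left out. Promoter and protein sequences were not analysed here.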

Additional observations from a re-analysis of the deposited data

Results flagged for a closer look

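The changes at 2 d and at 8 d against 0 d differed for 29 of the 43 genes named, by the contrast of 8 d with 2 d in limma, which 76.0% of all probe sets passed. The log2 change at 8 d was above that at 2 d by 0.53 for NAI2, 1.04 for NAI1, 0.64 for JAL33, 0.48 for JAL34, 0.37 for BGLU42, 0.92 for BGLU25, 1.07 for BGLU45, 0.52 for APS3 and 0.82 for AT1G04770. It was below that at 2 d for BGLU40 (−1.65), BGLU46 (−0.84), BGLU15 (−0.69) and BGLU33 (−1.42). Among genes of other lists the difference was 0.98 for BCAT4, 0.97 for MYC4, 0.74 for MYC3 and 0.21 for ATERDJ3B, and −0.46 for GTR1, −0.74 for GSTU20, −0.55 for AT2G31790, −0.62 for AT3G13610, −1.94 for STOMAGEN, −1.72 for SBPASE and −0.68 for FMA. Among genes of like profile it was −0.51 for TET8, 0.27 for CYP71B6, 0.41 for CPI1, 0.26 for PHOS34 and 0.21 for BZIP53. With array medians set equal, the differences of ATERDJ3B, CYP71B6, PHOS34 and BZIP53 did not pass. That of TET8 did not pass on the hybridization controls. Those of ATERDJ3B, CYP71B6 and BZIP53 were also lost when certain single arrays were left out. Groups of 3 arrays are too small for a check of single arrays by their gap to the rest.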

How the results depend on the processing

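BGLU28 kept both falls against 0 d, and NAI2 its fall at 2 d and its later rise, under all 17 alternatives. PYK10 did not: after quantile normalization its log2 change was −0.039 at 2 d (adjusted p = 0.692 in limma), 0.15 at 8 d and 0.19 from 2 d to 8 d, and on the hybridization controls −0.20, −0.14 and 0.07. For NAI2 at 8 d against 0 d the change was −0.28 with array medians equal, 0.26 after quantile normalization and 0.23 on the hybridization controls. For BGLU28 from 2 d to 8 d it was 0.89 on the hybridization controls and ran from 0.46 to 1.34 with arrays left out in turn. Of the ER body list 3 fell at 2 d after quantile normalization and 3 on the hybridization controls; at 8 d 0 rose with array medians equal, and 3 rose and 0 fell under each of the other 2 scalings. In the beta-glucosidase family at 8 d, 1 rose with array medians equal, after quantile normalization and without the dimmest probe sets, where BGLU33, BGLU45 and BGLU46 were not tested, 3 fell on the hybridization controls, and from 2 d to 8 d 2 fell without the dimmest probe sets. On the hybridization controls the sulfur list had 1 rise and 1 fall at 8 d and 4 rises from 2 d to 8 d. CPI1 turned to −0.22 at 8 d with array medians equal and PHOS34 to 0.21 on the hybridization controls. A change of sign where neither value passed, seen 42 times in 2172 gene values, was not counted as a reversal. The median change of all probe sets at 2 d and 8 d was −0.01 and 0.11 with array medians equal, 0.03 and 0.17 after quantile normalization and 0.27 and 0.60 on the hybridization controls, and 46.4%, 51.0% and 70.0% of calls at 2 d were rises, against 61.3%. The cause of these differences was not tested. With a replicate block 8115, 10191 and 8507 probe sets changed in the 3 contrasts, against 8160, 10217 and 8534. The numbers are not stated to pair samples and were not taken as pairs. Deviations of same-numbered arrays correlated at −0.09 to 0.11, which does not settle the question. Between 2 d and 8 d, same-numbered arrays correlated at 0.06 to 0.11 and differently numbered arrays at −0.07 to −0.005. The block ended 1 call among the genes named, that of AT3G13610 at 2 d.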
